A study of Mus musculus with 39 samples.

Results

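The genes described here are 10 mouse members of the Nlrp family that are known from oocytes: Nlrp2, Nlrp4a, Nlrp4b, Nlrp4c, Nlrp4e, Nlrp4f, Nlrp9a, Nlrp9b, Nlrp9c and Nlrp14. They were chosen by symbol, through the RefSeq name of each array probe, with no cut on a measured value, though earlier results of these data were known. Of these 10 genes, 9 were measured, by 11 of the 41174 probes on the array, which cover 16535 named genes; no probe was assigned to Nlrp4e. Gene expression was measured on 39 single-colour microarrays in 7 groups, and each array took RNA from a pool. The oocytes and donor cells came from (B6xDBA/2)F1 females aged 8 to 10 weeks, and all pools went through repeated linear amplification before labelling.

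The OC group held 7 arrays of oocytes arrested at metaphase of the second meiotic division, collected 15 h after hCG, with 10 oocytes per pool. The IVF group held 6 arrays of 2-cell embryos made by in vitro fertilization. The other embryos were made by somatic cell nuclear transfer (SCNT), in which a cumulus cell nucleus replaces the nucleus of the oocyte. TSA(-) held 8 arrays of untreated SCNT embryos, and TSA(+) held 6 arrays of SCNT embryos kept in 5 nM trichostatin A, a histone deacetylase inhibitor, for 8 h from activation. Spi-C 1.0 and Spi-C 0.1 held 4 arrays each of SCNT embryos that received Spi-C mRNA by injection, at 1.0 or 0.1 mg/ml, where Spi-C is a transcription factor of the Ets family; both doses together are called Spi-C NT. All embryos were pools of 10 at the 2-cell stage, after 24 h of culture. The Cumulus group held 4 arrays of 500 cumulus cells, the somatic cells that surround the oocyte and that supply the donor nuclei. The embryo groups therefore share oocyte cytoplasm, and a 2-cell pool holds RNA left from the oocyte beside RNA made by the embryo, which an array reading cannot separate.

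NLRP proteins carry an N-terminal pyrin domain, a central NACHT nucleotide-binding domain and C-terminal leucine-rich repeats. Several relatives, such as NLRP3, sense danger and assemble inflammasomes in immune cells, whereas another set is expressed almost solely in female germ cells. In rodents the Nlrp4 and Nlrp9 genes have multiplied by tandem duplication. The best known oocyte member, Nlrp5 (also named Mater), encodes a component of the subcortical maternal complex, a protein assembly that early embryos need, and Nlrp2 and Nlrp14 are known as maternal-effect genes.

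On assembly GRCm38.p6, 9 of the 10 genes lie on chromosome 7 and only Nlrp4f lies elsewhere, at chr13:65177111-65205716. Nlrp2 (chr7:5298547-5351035) and Nlrp4c (chr7:6045161-6105149) lie closest to the start of chromosome 7, followed by Nlrp4b (chr7:10687793-10730168), Nlrp9b (chr7:19991393-20062942) and Nlrp4e (chr7:23301192-23362277). Nlrp9c (chr7:26364691-26403700), Nlrp4a (chr7:26435113-26476142) and Nlrp9a (chr7:26535023-26574148) stand next to each other. Nlrp14 lies far from the rest, at chr7:107113455-107198103. The position of each probe within its gene was not analysed here. Because the members resemble each other in sequence, signal of a related transcript on a probe cannot be separated from that of its own gene.

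RefSeq promoter windows of 300 bases, from 250 before to 50 after an annotated start, existed for 9 of the 10 genes in 11 windows, all but Nlrp14. The 150 bases just before the start are shown for 6 genes whose differences are described below, 5′ to 3′ on the strand of the gene, to show how far the duplicated genes resemble each other upstream. Capitals mark CCAAT on either strand and the E-box core CANNTG, and marks that touch run together.

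Nlrp4a: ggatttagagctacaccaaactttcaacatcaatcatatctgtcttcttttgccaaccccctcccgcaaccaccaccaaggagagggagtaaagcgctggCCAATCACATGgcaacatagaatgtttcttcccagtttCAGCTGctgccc
Nlrp4b: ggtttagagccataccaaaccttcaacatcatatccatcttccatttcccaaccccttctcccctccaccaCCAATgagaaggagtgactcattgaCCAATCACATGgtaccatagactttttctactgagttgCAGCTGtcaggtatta
Nlrp4c: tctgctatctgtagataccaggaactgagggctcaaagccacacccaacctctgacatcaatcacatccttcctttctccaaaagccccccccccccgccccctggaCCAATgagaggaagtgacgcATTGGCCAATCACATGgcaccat
Nlrp9a: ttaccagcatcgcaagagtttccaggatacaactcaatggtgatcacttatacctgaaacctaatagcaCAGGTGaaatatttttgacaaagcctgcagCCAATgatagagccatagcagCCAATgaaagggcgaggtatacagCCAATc
Nlrp9c: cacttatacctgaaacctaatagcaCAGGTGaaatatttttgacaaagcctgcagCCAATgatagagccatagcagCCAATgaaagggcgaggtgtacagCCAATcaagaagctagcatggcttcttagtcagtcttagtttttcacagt
Nlrp2: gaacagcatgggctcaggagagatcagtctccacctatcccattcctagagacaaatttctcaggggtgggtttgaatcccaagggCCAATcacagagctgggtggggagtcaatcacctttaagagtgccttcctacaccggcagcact

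These stretches lie at chr7:26435464-26435613 (Nlrp4a, plus strand, second annotated start), chr7:10687643-10687792 (Nlrp4b, plus strand), chr7:6045011-6045160 (Nlrp4c, plus strand), chr7:26534873-26535022 (Nlrp9a, plus strand), chr7:26403701-26403850 (Nlrp9c, minus strand) and chr7:5351036-5351185 (Nlrp2, minus strand). The windows of Nlrp9a and Nlrp9c shared an unbroken run of 106 bases and were 89.6% identical over 260 aligned columns. The windows of Nlrp4a, Nlrp4b and Nlrp4c were 73.5 to 75.7% identical to each other, taking the second annotated start of Nlrp4a. The window at the other Nlrp4a start aligned with those of Nlrp4b and Nlrp4c over at most 25 columns. CANNTG, read on both strands, was present in windows of 8 of the 9 genes and in 72.3% of all 32851 mouse windows, so its presence does not set the members apart. CCAAT, on either strand, was present in windows of 7 of the 9 genes and in 37.4% of all windows; 3 or more copies, as in Nlrp4c, Nlrp9a and Nlrp9c, were found in 3.37%. The search for CCAAT was chosen after the sequences had been seen. The E-box CACGTG was in none of these windows (7.15% of all windows), TAATTA only in that of Nlrp9a (5.29%), TAATTG in those of Nlrp9a and Nlrp9b (8.00%), and TATAAA only in that of Nlrp9b (13.6%).

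Levels are given as the log2 of the background-subtracted signal relative to the 75th percentile of the same array, so a level of 0 is a signal equal to that percentile. Levels of different genes come from different probes and are not compared. Differences between groups are log2 differences ± SE from limma, with Benjamini-Hochberg adjustment over all 39517 probes tested, and a gene was called changed at an adjusted p under 0.01. Nlrp4a and Nlrp4b had 2 probes each and are represented by the brighter. The labels tell apart only pools, so the p-values measure the spread between pools.

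The labels were checked against marker genes first. All 6 measured oocyte markers were well above background on every OC array, while 4 of the 6 were so on none of the Cumulus arrays. The oocyte marker Gdf9 was still above background on all 4 Cumulus arrays, at −0.07 to 0.94, against 9.34 to 10.22 in OC. Of 10 cumulus and granulosa markers, 9 were above background on every Cumulus array, and Amh on none. Their summed level was 7.88 to 8.00 in Cumulus, 0.61 to 2.00 in OC and −0.68 to 0.48 in IVF. Leukocyte markers were also above background in Cumulus, 6 of 6 on all arrays, with a summed level of 4.68 to 6.82 against −2.20 to −0.56 in OC.

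The first comparison asked where the members are expressed. All 9 measured members were higher in oocytes than in cumulus cells, and 7 of them were not well above background on any Cumulus array by the representative probe. The dimmer probe of Nlrp4a was above background on 1 of the 4 Cumulus arrays, at −3.76. Nlrp2 lay between 4.46 and 5.50 in OC, with a median of 5.14, and at −2.57, −2.76, −3.02 and −2.34 in Cumulus. Nlrp9c lay between 5.81 and 6.58 in OC, with a median of 6.33, and at −4.39, −5.06, −4.80 and −4.81 in Cumulus. These 2 genes were the only members above background on all 4 Cumulus arrays, and every OC array lay above every Cumulus array.

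Nlrp2 was higher in OC by 7.83 ± 0.17 (adjusted p = 3.7e-26), a 227-fold difference, and Nlrp9c by 11.03 ± 0.16 (adjusted p = 3.8e-30). For the representative probes of the other 7 members only a lower bound can be given, set against the lowest signal that was well above background on each Cumulus array. Nlrp4f was at least 56290-fold higher in OC, Nlrp4b at least 54986-fold, Nlrp14 at least 50493-fold, Nlrp4a at least 45194-fold, Nlrp9a at least 23847-fold and Nlrp4c at least 1915-fold. The dimmer Nlrp4a probe gave a smaller difference, 14.13 ± 0.49, or 17936-fold, with 3 of its 4 Cumulus arrays not well above background. Nlrp9b was close to background everywhere and had a bound of only 4.55-fold. For comparison, 44.4% of all probes were called higher in OC, with a median difference of 1.15 over all probes and, with the 7 genes at their bound, of at least 14.54 over the members. Oocytes and cumulus cells were read on different slides, scanners and software versions, so group and batch cannot be told apart. In pooled samples fewer cells of a type and less RNA per cell cannot be told apart either. The oocyte marker Gdf9 was above background in the Cumulus pools, as were Nlrp2 and Nlrp9c, and its part in their readings was not tested.

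**Figure D1:**
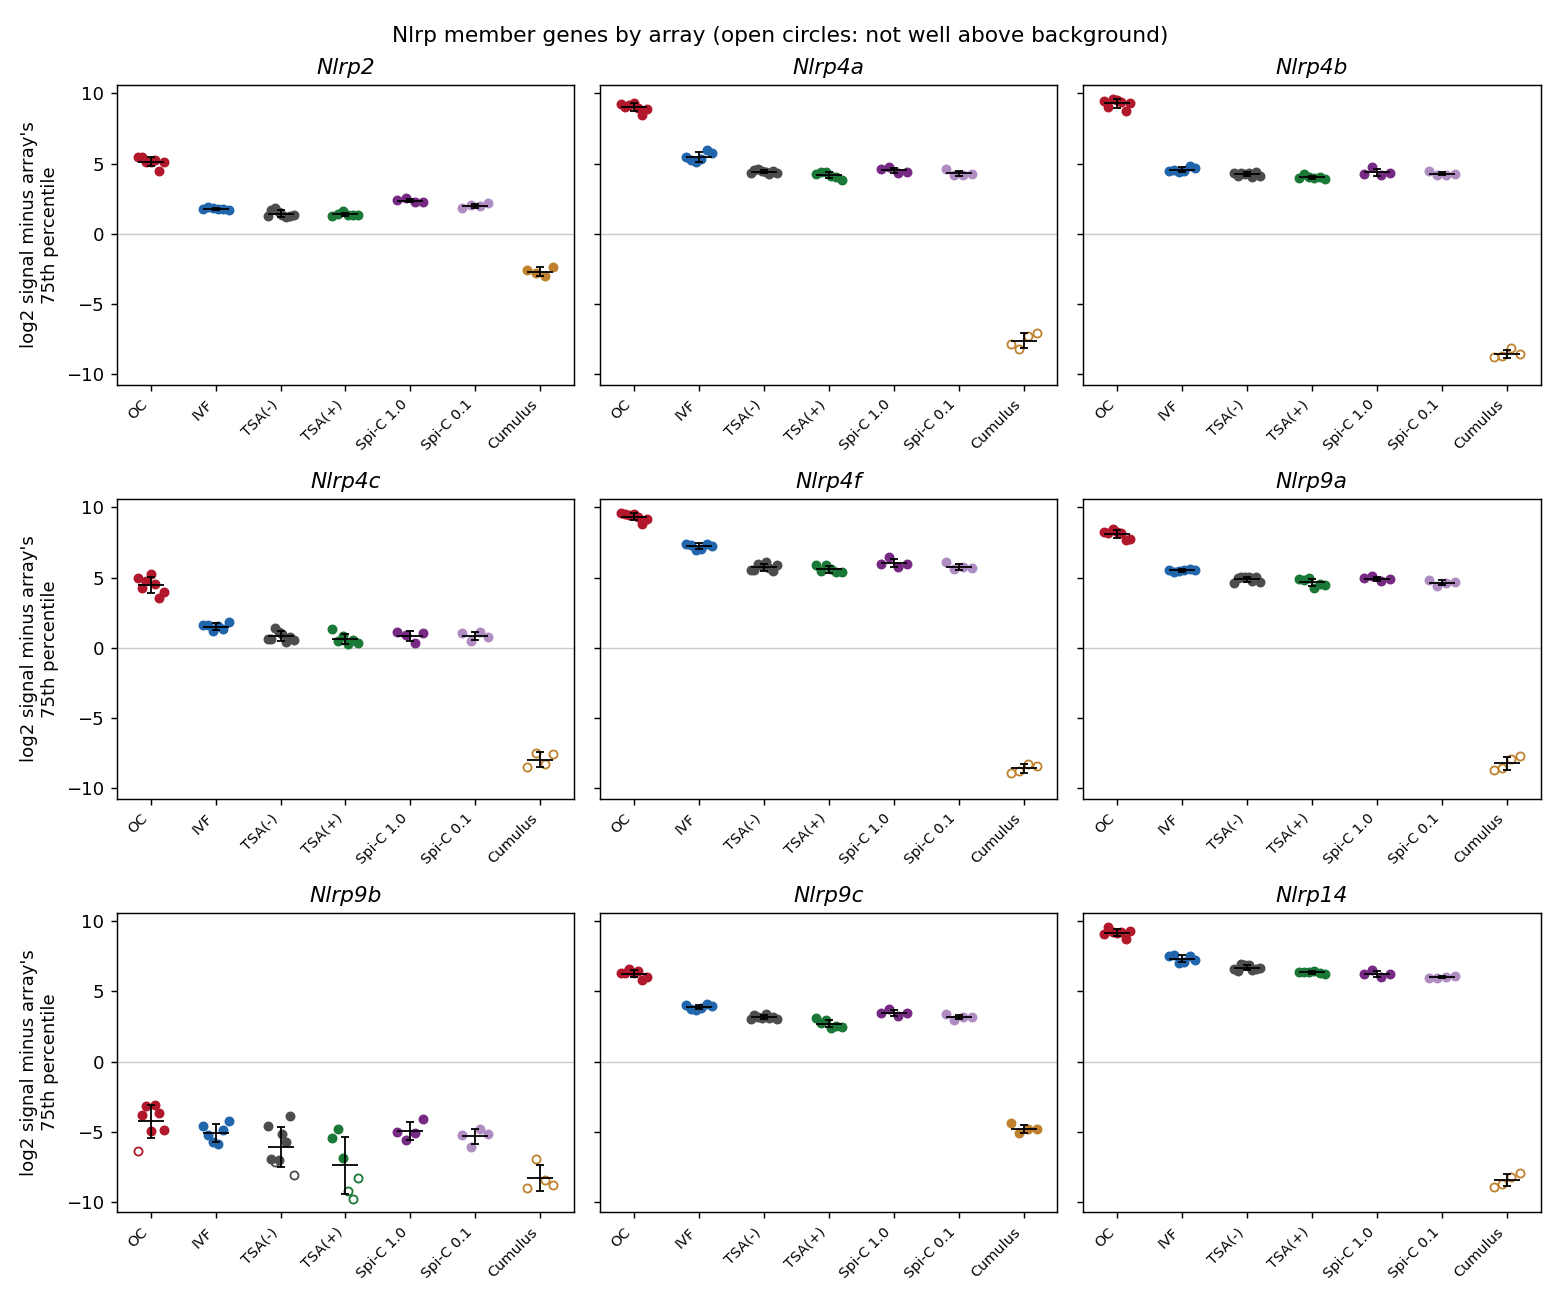
Level of each measured member on every array (y axis: log2 signal minus the 75th percentile of the array; x axis: the 7 groups; points are arrays, bars are the mean and SD). OC is the highest group for all 9 genes, and Nlrp9b is dim and widely scattered in every group.

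The next question was how much of each transcript was left in fertilized embryos. Of the 9 members, 8 were lower at the 2-cell stage after IVF than in oocytes, with no overlap between the arrays of both groups, and between 3.78% and 27.7% of the oocyte level remained on this scale. Of all probes, 33.3% lay lower in IVF without overlap. Nlrp4b had the largest difference and Nlrp14 the smallest. Of all probes, 42.7% were called lower in IVF, and the median over all probes was −0.88, against −2.60 over the members. The summed level of the cumulus markers, given above, was also higher in OC than in IVF, and its part in the member values was not tested. On both slides that held OC and IVF arrays the 8 genes were lower in IVF, by −4.85 and −4.71 for Nlrp4b and by −1.84 and −1.64 for Nlrp14.

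Within the Nlrp4 genes the differences were unequal. Nlrp4b lay between 8.77 and 9.64 in OC (median 9.39) and between 4.42 and 4.83 in IVF (median 4.52). Its level was lower in IVF by −4.72 ± 0.14 (adjusted p = 3.1e-22), or 26.4-fold, and its other probe gave −4.91. Nlrp4a lay between 8.48 and 9.30 in OC (median 9.07) and between 5.10 and 5.99 in IVF (median 5.40). The difference was −3.54 ± 0.17 (adjusted p = 4.7e-17), and −3.74 by its other probe. Both probes of each gene therefore gave similar values for this comparison.

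Nlrp4c, which varied most between OC arrays among the Nlrp4 genes, lay between 3.52 and 5.26 in OC (median 4.56) and between 1.19 and 1.81 in IVF (median 1.58). It differed by −2.95 ± 0.24 (adjusted p = 4.9e-12). Nlrp4f, the only member on chromosome 13, lay between 8.80 and 9.59 in OC (median 9.48) and between 6.94 and 7.42 in IVF (median 7.30). Its difference was −2.11 ± 0.16 (adjusted p = 6.9e-13), or 4.30-fold.

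Nlrp2, a maternal-effect gene, lay between 4.46 and 5.50 in OC and between 1.74 and 1.91 in IVF (median 1.77). It differed by −3.36 ± 0.15 (adjusted p = 4.7e-18). The Nlrp9 genes fell into a measured pair and a dim gene: Nlrp9a differed by −2.60 ± 0.16 (adjusted p = 1.4e-14) and Nlrp9c by −2.37 ± 0.15 (adjusted p = 7.2e-15). Nlrp9b, which ranged from −6.35 to −3.10 in OC and had overlapping groups, differed by −0.84 ± 0.73 (adjusted p = 0.301). Nlrp14, also a maternal-effect gene, lay between 8.70 and 9.60 in OC (median 9.19) and between 7.01 and 7.56 in IVF (median 7.39). It differed by −1.85 ± 0.15 (adjusted p = 7.0e-12).

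The size of these differences depends on how arrays are put on one scale, since the 75th percentile of raw signal had a median of 373 in OC and 1071 in IVF. The median of all probes for IVF against OC was −0.88 after scaling to the 75th percentile, −0.29 after quantile normalization and −1.55 after centring on the array median. Relative to the all-probe median, the difference was −3.85 for Nlrp4b, −2.67 for Nlrp4a, −2.48 for Nlrp2, −2.07 for Nlrp4c, −1.72 for Nlrp9a, −1.50 for Nlrp9c, −1.23 for Nlrp4f and −0.98 for Nlrp14. After quantile normalization Nlrp4f (0.09, adjusted p = 0.64) and Nlrp14 (0.33, adjusted p = 0.074) were no longer lower in IVF, and Nlrp9a (−0.27, adjusted p = 0.148) no longer passed. The call of a fall therefore rests on the scale for Nlrp4f, Nlrp9a and Nlrp14. The 5 other genes kept it under the alternative settings, but Nlrp9c only narrowly, with a largest adjusted p of 0.00857.

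Unscaled signal separated OC from IVF for some genes and not for others. Nlrp4b read 193053 to 267152 units in OC and 21283 to 31149 in IVF, far apart before any scaling. Nlrp14 read 150265 to 290220 in OC and 128786 to 252899 in IVF, which overlap. Nlrp4f read 209099 to 271801 in OC and 122638 to 233637 in IVF, also overlapping. Unscaled ranges of OC and IVF overlapped for 4 of the 9 genes, the others being Nlrp9b and Nlrp9c, so 5 of 9 did not overlap, against 42.0% of all probes.

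**Figure D2:**
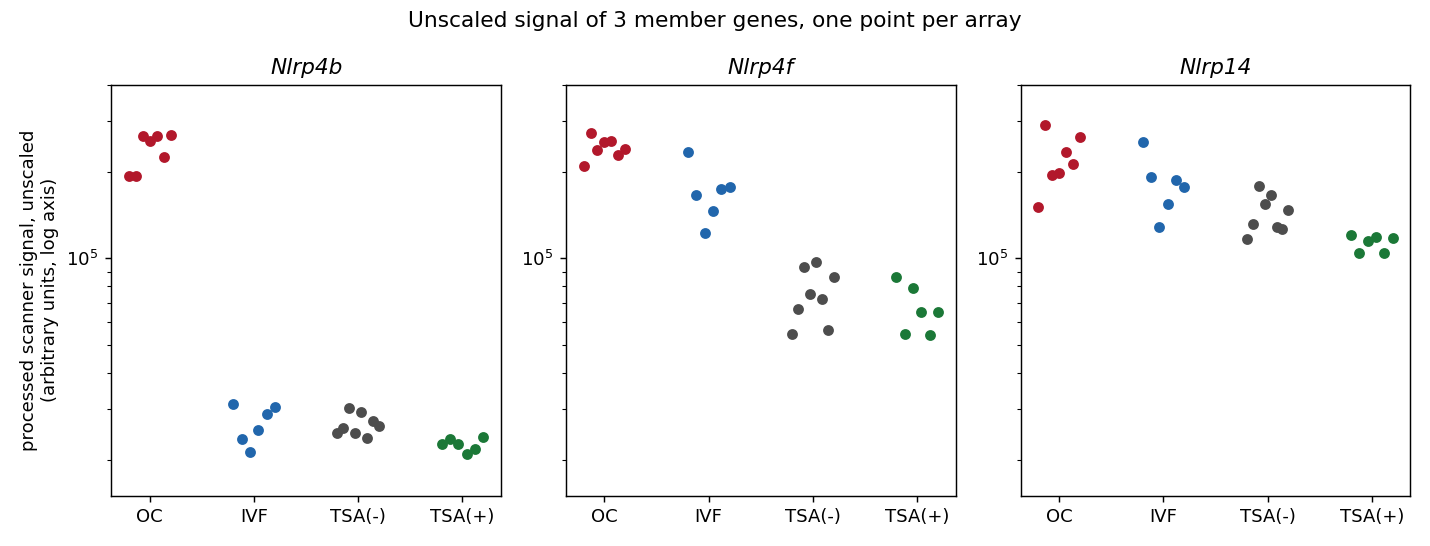
Processed scanner signal before scaling of Nlrp4b, Nlrp4f and Nlrp14 on each OC, IVF, TSA(-) and TSA(+) array (y axis: arbitrary units on a log axis; x axis: group; each point is an array). Nlrp4b separates OC from all embryos, Nlrp4f overlaps between OC and IVF only, and Nlrp14 overlaps between OC and both IVF and TSA(-).

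A ratio of 2 genes on the same array does not depend on the scaling to the 75th percentile. The ratio of Nlrp4b to Nlrp4f was −0.03 ± 0.23 (SD, n = 7) in OC and −2.65 ± 0.17 (SD, n = 6) in IVF. In log2 units Nlrp4b thus lost 2.62 more than Nlrp4f between these groups. The ratio of Nlrp4a to Nlrp4b moved the other way, from −0.28 ± 0.17 in OC to 0.90 ± 0.19 in IVF. These ratios were chosen after their values were seen and carry no test.

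SCNT embryos were compared with IVF embryos of the same stage to ask whether nuclear transfer altered the members. All 9 measured members had lower mean levels in TSA(-) than in IVF, and 5 passed the test: Nlrp4f, Nlrp4a, Nlrp9c, Nlrp14 and Nlrp9a. Of all probes 10.3% were called lower in this comparison, and the median was −0.05 over all probes and −0.69 over the members. The arrays of TSA(-) and IVF did not overlap for 6 of the 9 genes, the 5 called genes and Nlrp4b, and 8.29% of all probes lay lower in TSA(-) without overlap. By the dimmer Nlrp4b probe both groups overlapped, with TSA(-) up to 3.86 and IVF from 3.71.

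Nlrp4f had the largest difference among the members that passed. It ranged from 5.44 to 6.08 in TSA(-) (median 5.77), against 6.94 to 7.42 in IVF, a difference of −1.49 ± 0.15 (adjusted p = 1.3e-08) that left 35.5% of the IVF level. Nlrp4a ranged from 4.25 to 4.61 in TSA(-) (median 4.45), against 5.10 to 5.99 in IVF. It differed by −1.05 ± 0.17 (adjusted p = 2.0e-05), while its dimmer probe gave −0.92 and did not pass (adjusted p = 0.108). By the dimmer probe, too, the arrays of both groups did not overlap. Its SE was 0.42 in a fit that took in the Cumulus arrays, where its SD was 2.25, against 0.17 in TSA(-) and 0.41 in IVF.

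Nlrp9c ranged from 3.01 to 3.42 in TSA(-) (median 3.13) and from 3.69 to 4.12 in IVF (median 3.87), and differed by −0.73 ± 0.14 (adjusted p = 0.000208). Nlrp14 ranged from 6.48 to 6.93 in TSA(-) (median 6.63), and differed by −0.64 ± 0.15 (adjusted p = 0.00147). Nlrp9a ranged from 4.63 to 5.05 in TSA(-) (median 4.98) and from 5.37 to 5.58 in IVF (median 5.52), and differed by −0.61 ± 0.16 (adjusted p = 0.00404). The lowest IVF array lay above the highest TSA(-) array for each of these genes. When the slide entered the model as a block, Nlrp14 (adjusted p = 0.0111), Nlrp9c (0.0218) and Nlrp9a (0.0936) no longer passed, whereas Nlrp4f and Nlrp4a did, and after quantile normalization Nlrp9a (0.0228) and Nlrp14 (0.0396) did not. On each of the 3 slides that held both groups, the 8 bright members were lower in TSA(-), Nlrp4f by −1.91 to −1.34.

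The remaining members missed the threshold. Nlrp4c differed by −0.69 ± 0.23 (adjusted p = 0.0264), Nlrp2 by −0.35 ± 0.15 (adjusted p = 0.0711) and Nlrp4b by −0.32 ± 0.13 (adjusted p = 0.0706). Their 95% intervals were −1.17 to −0.21, −0.65 to −0.06 and −0.59 to −0.05. Nlrp4b, the member with the largest difference between oocytes and IVF embryos, had the smallest between IVF and TSA(-) embryos. The ratio of Nlrp4b to Nlrp4f within an array was −2.65 ± 0.17 in IVF and −1.48 ± 0.26 (SD, n = 8) in TSA(-), without overlap. This change was the largest among the 28 pairs of the 8 bright members, of which 10 did not overlap, and it carries no test. Pairs that share a gene are not independent, and the share over pairs of all probes was not counted. Markers of the 2-cell stage also differed: their summed level was 5.37 to 6.77 in TSA(-) and 7.23 to 7.68 in IVF, and its part in the member values was not tested.

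Against oocytes, TSA(-) embryos were lower for the same 8 members, by −2.50 ± 0.14 for Nlrp14 to −5.05 ± 0.13 for Nlrp4b (46.8% of all probes were called lower, and the median was −1.0 over all probes and −3.60 over the members). After quantile normalization Nlrp14 differed by only −0.10 and no longer passed (adjusted p = 0.575). This comparison shares its oocyte arrays with IVF against OC. Unscaled, TSA(-) and OC overlapped only for Nlrp9b and Nlrp14, so 7 of 9 did not overlap, against 40.1% of all probes. Between 3.02% and 17.7% of the oocyte level remained for the 8 genes on the scaled values.

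**Figure D3:**
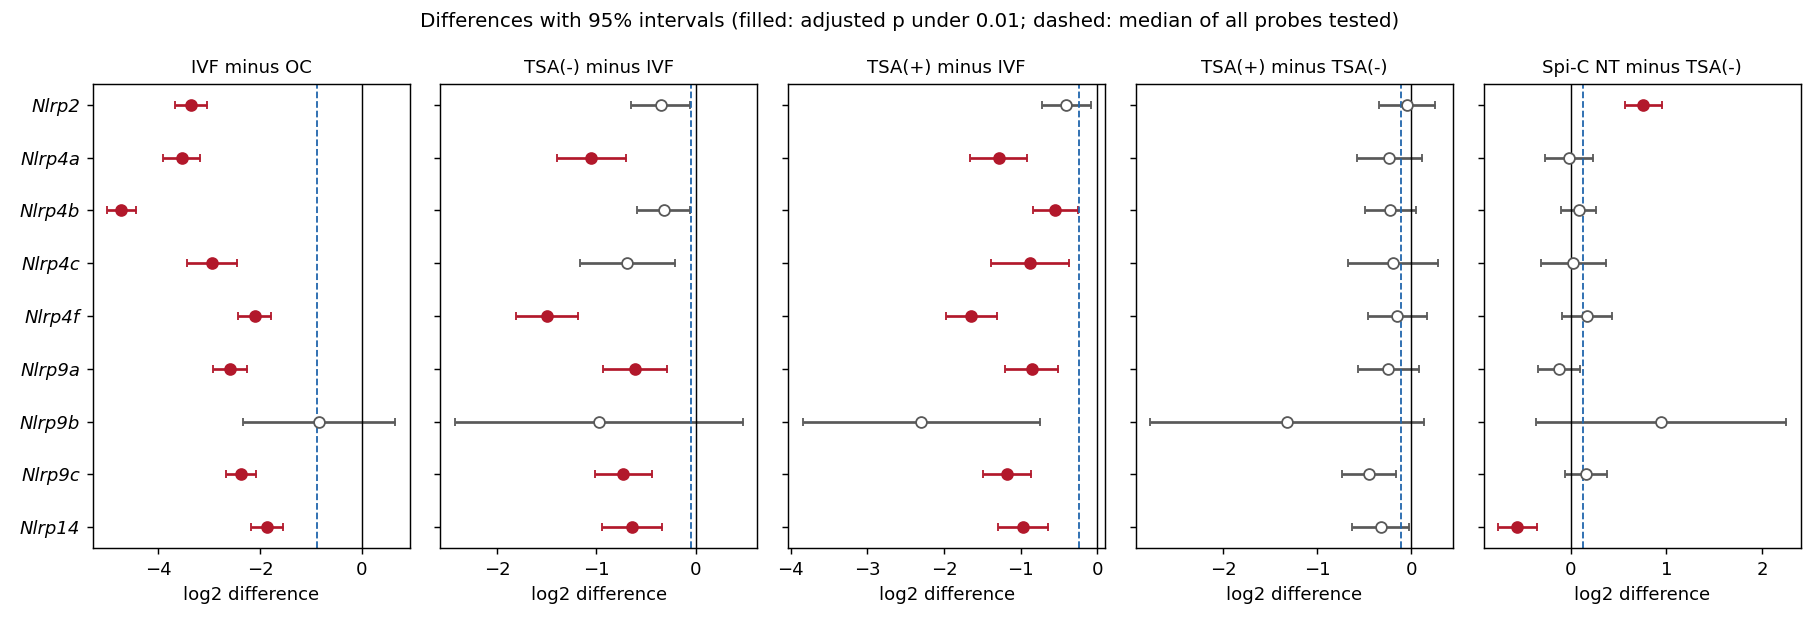
Log2 difference of each measured member in 5 comparisons (x axis: log2 difference with its 95% interval; y axis: gene; filled red points passed an adjusted p under 0.01, open grey points did not). All points lie below 0 for IVF against OC and for both SCNT groups against IVF, and for Spi-C NT against TSA(-) only Nlrp2, above 0, and Nlrp14, below 0, passed.

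Trichostatin A was compared to learn whether it moved the members towards the IVF level. None of the 9 members passed by limma between TSA(+) and TSA(-), 2 having an unadjusted p under 0.05, and all 9 mean levels lay below those of TSA(-). Of all 39517 probes, 0.137% were called in this comparison, in either direction, and 6435 had an unadjusted p under 0.05. Without Nlrp9b, the differences ran from −0.45 for Nlrp9c to −0.05 for Nlrp2, with a median of −0.23 over the members and −0.11 over all probes.

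Nlrp9c was the member with the smallest adjusted p. It ranged from 2.43 to 3.08 in TSA(+) (median 2.65) and from 3.01 to 3.42 in TSA(-), which overlap, and differed by −0.45 ± 0.14 (adjusted p = 0.101; 95% interval −0.74 to −0.16). Tukey's test after a one-way test called Nlrp9c alone among the members, and 797 of all 39517 probes. Nlrp14 ranged from 6.22 to 6.48 in TSA(+) (median 6.39), just below the lowest TSA(-) array at 6.48, and differed by −0.33 ± 0.15 (adjusted p = 0.271). For Nlrp4f the interval of the difference was −0.46 to 0.16, and for Nlrp4a −0.58 to 0.12. On the only slide that held an array of each group, Nlrp9b (1.54), Nlrp4c (0.65) and Nlrp4f (0.38) were higher in TSA(+) and the other 6 lower, by −0.39 (Nlrp2) to −0.05 (Nlrp9a).

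TSA(+) embryos were lower than IVF embryos for 7 members (11.1% of all probes were called lower). Nlrp4f ranged from 5.36 to 5.89 in TSA(+) (median 5.54) and differed from IVF by −1.64 ± 0.16 (adjusted p = 9.4e-09). The other 6 were Nlrp4a (−1.28), Nlrp9c (−1.18), Nlrp14 (−0.97), Nlrp4c (−0.88), Nlrp9a (−0.86) and Nlrp4b (−0.54). The dimmer Nlrp4a probe gave −1.39 ± 0.45 and did not pass (adjusted p = 0.0198), in the same fit with the Cumulus arrays. The dimmer Nlrp4b probe passed (−0.57, adjusted p = 0.00292). The median was −0.97 over the members and −0.23 over all probes, and the IVF arrays are the ones used against TSA(-). By the representative probes, Nlrp4c and Nlrp4b are the least secure of these calls. Leaving out single IVF or TSA(+) arrays ended the call for Nlrp4c in 9 of 12 fits and for Nlrp4b in 3 of 12. Both calls were also lost with the slide as a block (adjusted p = 0.026 for Nlrp4c and 0.0237 for Nlrp4b) and with median centring (0.038 and 0.0973). Whether the extra calls in TSA(+) mark a difference between both SCNT groups cannot be decided by their direct comparison above. There Nlrp4c (−0.19 ± 0.23, adjusted p = 0.735) and Nlrp4b (−0.22 ± 0.13, adjusted p = 0.417) did not pass. The intervals of these differences, −0.67 to 0.29 and −0.49 to 0.05, reach from a fall in TSA(+) to a rise. A missed difference therefore cannot be told from none.

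Injection of Spi-C mRNA was compared with uninjected SCNT embryos. Nlrp2 was higher and Nlrp14 lower in Spi-C NT than in TSA(-), and the other 7 members did not pass. Nlrp2 read 2.42, 2.55, 2.28 and 2.29 in Spi-C 1.0 and 1.86, 2.05, 1.98 and 2.20 in Spi-C 0.1, against 1.18 to 1.82 in TSA(-). Every injected pool thus lay above every uninjected one. The share of all probes that did so was not counted, so this separation is not read as a trait of Nlrp2. The difference was 0.76 ± 0.09 (adjusted p = 6.0e-07), or 1.69-fold. Nlrp14 read 6.26, 6.52, 6.04 and 6.22 in Spi-C 1.0 and 5.95, 5.98, 6.04 and 6.08 in Spi-C 0.1, against 6.48 to 6.93 in TSA(-). A single Spi-C 1.0 pool reached into the TSA(-) range, and the difference was −0.55 ± 0.10 (adjusted p = 9.8e-05). After quantile normalization it was −0.23 and did not pass (adjusted p = 0.0525), whereas Nlrp2 did.

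Of all probes 20.7% were called in this comparison, 11.5% higher and 9.2% lower, and the median was 0.13 over all probes and 0.09 over the members. Of the 6 other bright members, none passed by the representative probe, with differences from −0.12 (Nlrp9a) to 0.17 (Nlrp4f). The dimmer Nlrp4b probe was called higher (0.35, adjusted p = 0.00513) where the representative one was not (0.09), so the probes of this gene disagree. The dimmer Nlrp4a probe gave 0.45 without passing (adjusted p = 0.0167), where the representative one gave −0.02. The ratio of Nlrp2 to Nlrp14 on the same array was −3.93 ± 0.11 (SD, n = 8) in Spi-C NT and −5.24 ± 0.21 (SD, n = 8) in TSA(-), without overlap. It joins the member called higher with the one called lower, so its separation adds no support. Its change was the largest among the 28 pairs of the 8 bright members, of which 8 did not overlap. Here too pairs share genes, and the share over pairs of all probes was not counted. No slide held both groups, and the injected pools were read with another scanner and software version, so injection and batch cannot be told apart.

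No member passed by limma between the doses, 1 having an unadjusted p under 0.05, and Tukey's test called none. Of all 39517 probes, 0.00506% passed by limma, 1624 had an unadjusted p under 0.05 and Tukey's test called 52. All 9 mean levels were higher at 1.0 mg/ml, by 0.01 for Nlrp4c to 0.38 for Nlrp9b, and the median was 0.27 over the members and 0.02 over all probes. Nlrp2 was the only member whose 4 arrays did not overlap between doses (1.78% of all probes were higher without overlap), with a difference of 0.36 ± 0.13 (95% interval 0.09 to 0.63). With 4 pools per dose, effects smaller than these intervals could not be resolved.

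**Figure D4:**
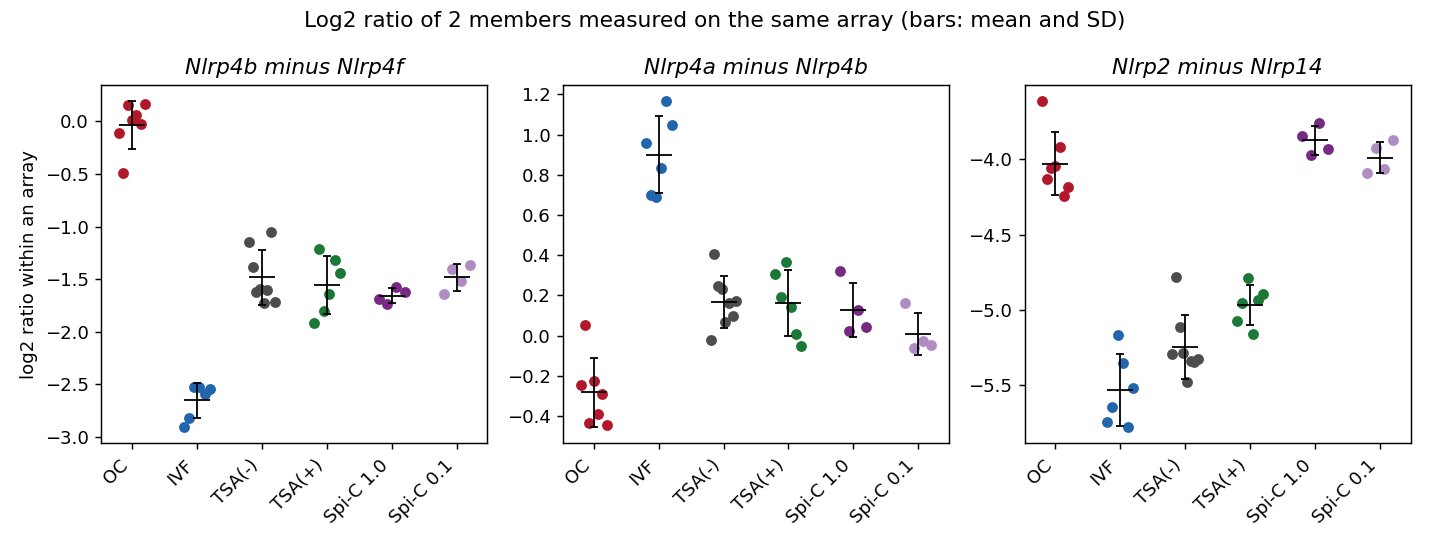
Log2 ratio of 2 members read on the same array, for Nlrp4b over Nlrp4f, Nlrp4a over Nlrp4b and Nlrp2 over Nlrp14 (y axis: log2 ratio; x axis: the oocyte and embryo groups; points are arrays, bars are the mean and SD). Nlrp4b over Nlrp4f is near 0 in OC, lowest in IVF at −2.65 and between the 2 in the SCNT groups, and Nlrp2 over Nlrp14 is −3.93 in Spi-C NT and −5.24 in TSA(-).

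Nlrp9b was measured poorly. It was well above background on 6 of 7 OC, 6 of 6 IVF, 6 of 8 TSA(-) and 3 of 6 TSA(+) arrays. Its levels spread over an SD of 1.19 in OC and 2.03 in TSA(+), and outside the comparison with Cumulus it was called in none of the comparisons as reported here. It passed for TSA(-) against OC after quantile normalization (adjusted p = 0.00515), median centring (0.0015) or normexp background correction (1.1e-10), and for IVF against OC with normexp (8.0e-08).

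The order of the groups was similar among the bright members. By the representative probes, OC was highest and Cumulus lowest for all 8, with IVF next to OC in 7. By the dimmer Nlrp4b probe, Spi-C 1.0 (4.03) stood above IVF (3.93). In Nlrp2 both Spi-C groups stood between OC and IVF (2.38 ± 0.13 and 2.02 ± 0.14, SD, n = 4, against 1.80 ± 0.07, SD, n = 6), a difference from IVF that was not tested. TSA(-) stood above TSA(+) in every bright member, without passing the test in any.

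Related genes were taken from lists by function, with no cut on their values, though earlier results of these data were known. For comparison, of all 39517 probes 9225 were called higher and 16871 lower in IVF than in OC, with a median of −0.88. Between TSA(-) and IVF, 3354 were called higher in TSA(-) and 4065 lower, with a median of −0.05. Between OC and Cumulus, 17529 were called higher in OC and 9261 lower, with a median of 1.15. The subcortical maternal complex and Nlrp5 are the nearest functional relatives. Of these 6 genes, 5 were lower in IVF than in OC, with a median of −1.86. Tle6, a co-repressor homologue in the complex, differed by −3.06 ± 0.15, Khdc3 (Filia) by −2.96 ± 0.29, Padi6, a peptidylarginine deiminase of oocyte lattices, by −2.21 ± 0.17 and Nlrp5 itself by −1.51 ± 0.23. After quantile normalization 3 of the 6 were called lower and 1 higher. Between TSA(-) and IVF, 2 of the 6 were lower, Ooep (−1.30 ± 0.27) and Zbed3 (−1.16 ± 0.20), which are named after their values were seen, while Nlrp5 differed by −0.05 ± 0.22 (adjusted p = 0.907) and turned to above 0 after quantile normalization. All 6 were higher in OC than in Cumulus.

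Of 13 other NLR genes, 8 were measured, and they moved in both directions. Between IVF and OC, 3 were higher and 3 lower, with a median of −0.52, against 9225 higher and 16871 lower of all 39517 probes. The cytosolic sensor Nod1 was higher in IVF (2.36 ± 0.30) and its relative Nod2 lower (−1.21 ± 0.23). The mitochondrial NLR Nlrx1 was higher in IVF (2.33 ± 0.38) but below 0 with the normexp background correction, and Nlrc4 differed by 0.06 ± 0.38. Between TSA(-) and IVF, 1 was higher and 2 lower, and between OC and Cumulus 3 were higher in OC and 3 lower. The counts over all probes for both comparisons are given above.

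The 8 genes that NLR proteins work with in inflammasomes showed another pattern. Between OC and Cumulus, 1 was higher in OC and 6 were lower, with a median of −4.06, against 17529 higher and 9261 lower of all 39517 probes. Gsdmd, the pore-forming gasdermin, was lower in OC by −6.19 ± 0.25 and Pycard, the ASC adaptor, by −2.94 ± 0.31. Txnip, a thioredoxin-binding protein, was the gene higher in OC (3.90 ± 0.18), and Nek7, a kinase that activates NLRP3, differed by 0.31 ± 0.43. Between IVF and OC, 2 were higher and 2 lower, against 9225 higher and 16871 lower of all 39517 probes. Gsdmd was higher in IVF (4.56 ± 0.22) and Txnip lower (−5.29 ± 0.16). The leukocyte markers, given above, were also above background in the Cumulus pools, and their part in the readings of this list was not tested.

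Among 7 transcription factors of oocytes, 5 were measured. All 5 were lower in IVF than in OC on the 75th-percentile scale, with a median of −1.24, while Lhx8 (−0.83 ± 0.15) and Nobox (−1.24 ± 0.16), homeobox factors of the growing oocyte, turned to above 0 after quantile normalization. Sohlh2, a helix-loop-helix factor, was lower by −4.84 ± 0.18. In TSA(-) against IVF, Nobox (−1.25 ± 0.16) and Lhx8 (−0.98 ± 0.14) were lower, as were the 5 members that passed.

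Lastly, genes whose level followed the mean of the 8 bright members were sought. The 9282 other genes compared were limited, as were the members averaged, to those well above background on all OC arrays. The 5 highest Pearson correlations over the 39 arrays were those of Mbl2 (0.999), Obox1 (0.998), Pramel32 (0.997), Dazl (0.996) and Klhl8 (0.996). Obox1 is an oocyte homeobox gene and Dazl encodes a germ cell RNA-binding protein. The mean level in Cumulus was 1.70 for Klhl8, against −8.55 for Mbl2, −8.71 for Obox1, −7.03 for Pramel32 and −8.46 for Dazl. Without the Cumulus arrays, r over the 35 remaining arrays was 0.990, 0.986, 0.984, 0.979 and 0.974 in that order. A high r was common: 998 of the 9282 genes exceeded 0.9, and the median r was 0.317. The points share their arrays, groups and scaling, and the correlations are a description with no test.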

How the data were processed

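The 39 arrays (Agilent Whole Mouse Genome, single-colour Cy3) were grouped by their labels. The authors deposited scanner text files, read with Agilent Feature Extraction 9.5.3.1 per the labels; per the file headers, OC, IVF and TSA arrays used 9.5.3.1 and Spi-C and Cumulus arrays 10.5.1.1. The deposited intensity is a background-subtracted, never negative spot signal. The deposited value table of the series holds log2 values, which differed little from the scanner values once these were set relative to the 75th percentile and to the median of each probe (median r 0.99986); it served as an alternative.

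Control spots and outlier spots were left out, spots of a probe averaged, and log2 intensity taken relative to the 75th percentile of its array. Probes were named through their RefSeq accessions (23374 of 41174 had a symbol). Probes reaching an intensity of 10 on at least 1 IVF or SCNT array entered limma 3.58.1 (R 4.3.3), 39517 in all, which was tested on simulated data first. A fit over OC, IVF, TSA(-), TSA(+) and Cumulus and a fit over IVF, TSA(-), TSA(+) and both Spi-C groups each shared an estimate of the spread within the fit, and Benjamini-Hochberg adjusted p under 0.01 was called. The number of arrays limits the precision; no spot of a member was saturated.

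All measured members are named, with up to 4 genes per list (highest mean level, beside Ooep and Zbed3, named after their values were seen) and the 5 genes most correlated with the members. The members and lists were chosen with earlier results of these data known. Alternatives were the threshold, Tukey's test, normalization, background correction, filters, blocks, the probes of a gene and leaving out arrays. A replicate number is only a name here: of 97 same-numbered pairs of arrays, 1 had a correlation of deviations above 0.1 (median −0.0019).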

Additional observations from a re-analysis of the deposited data

Results flagged for a closer look

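In 2 of the 63 groups tested among the members, a single array stood apart from the others of its group by more than Dixon's critical value allows. Chance flags about 1 in 20 such groups. Nlrp2 read 4.46 on OC replicate 6, against 5.11 to 5.50 on the other 6 OC arrays. Nlrp4a read 4.62 on Spi-C 0.1 replicate 1, against 4.17 to 4.24 on the other 3 arrays of that dose. Leaving out either array changed no call for the gene concerned.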

How the results depend on the processing

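Quantile normalization had the widest effect. It left 5 of 8 members called lower in IVF than in OC, where Nlrp4f turned to 0.09 and Nlrp14 to 0.33, 3 of 5 lower in TSA(-) than in IVF, and 1 of 2 called between Spi-C NT and TSA(-). With the slide as a block, 2 of 5 members were called between TSA(-) and IVF. Tukey's test called 1 member between TSA(+) and TSA(-), where limma called none. The cause was not tested. The other 99 counts under the alternative settings stayed within 1.5 times the value reported, against these 5 that moved.

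Leaving out each array in turn gave 8 calls throughout for IVF against OC, 5 for TSA(-) against IVF, 0 for TSA(+) against TSA(-), 2 for Spi-C NT against TSA(-), 0 between the doses and 9 for OC against Cumulus. It gave 8 to 9 for TSA(-) against OC, where Nlrp9b was called without OC replicate 1 (adjusted p = 0.0058) or TSA(-) replicate 7 (0.00581). It gave 5 to 8 for TSA(+) against IVF, where Nlrp4c was lost without IVF replicate 1, 2, 4, 5 or 6 or TSA(+) replicate 2, 4, 5 or 6, and Nlrp4b without IVF replicate 5 or 6 or TSA(+) replicate 6. Nlrp9b was called there without TSA(+) replicate 1 (0.00904) or 2 (0.00521).

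The replicate numbers did not pair the arrays. With the replicate block, 8 members were called for IVF against OC, 8 for TSA(-) against OC, 4 for TSA(-) against IVF, 6 for TSA(+) against IVF, 0 for TSA(+) against TSA(-), 2 for Spi-C NT against TSA(-), 0 between the doses and 9 for OC against Cumulus. Signal near background limits the Nlrp9b values in every group.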
